A study of Mus musculus with 20 samples.

Results

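Liver RNA of adult male mice whose mothers had spent pregnancy at 10 °C was compared with that of males whose mothers had been housed at 23 °C, the standard temperature of the animal house. Every difference is given as 10 °C minus 23 °C on the log2 scale, where 1 unit is 2-fold. The transcripts described are those with 1 gene symbol whose mean over the 10 arrays lay above a floor of 4.75. This floor is the highest mean of the negative control rows on any of the 10 arrays. The 95th percentile of the negative control values was higher, at 7.95, and 4967 members lay above it. Members below 7.95 thus lie within the spread of single negative control values. The members nearest the floor were Styk1 inside it, with a mean of 4.7465, and Dclk3 outside it, with 4.7456. This left 9404 clusters of 9379 genes, out of 22206 transcript clusters on the array, of which 19572 had 1 symbol. Of the 9404, 9227 lay above the floor in both group means and 177 in only one of them.

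All animals were wild-type C57BL/6NCr males aged 4 to 5 months with free access to standard chow. Dams of the 10 °C group had been acclimated to that temperature for 2 weeks before breeding, and sires were exposed to it for 3 days. Dams and pups moved to 23 °C on the day of birth, so the groups differed in temperature up to delivery, and the 23 °C pairs served as the controls. Each group held 5 arrays of total liver RNA, with 20 arrays in the series, the others being 5 from 18 °C and 5 from 30 °C pregnancies. The labels name no litter or dam, so animals of a group may be littermates, and p-values measure the spread between these samples. In whole tissue, fewer cells of a type and less RNA per cell cannot be told apart. Values below run in the order of animals 2, 4, 5, 6 and 8 for 10 °C and of animals 1, 2, 15, 17 and 23 for 23 °C.

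A pregnant mouse kept in the cold makes heat by shivering and by brown fat, which takes up glucose and fat from the blood. The fetal liver makes blood cells and the adult liver stores glycogen, releases glucose, makes fat and bile acids, and secretes most plasma proteins. Heat shock proteins fold other proteins under stress, the cold-inducible RNA-binding proteins increase when cells are cooled, and the respiratory chain with ATP synthase makes most cellular ATP.

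The difference between the groups was small for most genes, and 1 named transcript passed the test. Of the 9404 members, 4828 were higher and 4576 lower in the 10 °C group, with a median difference of 0.01, and the 5th and 95th percentiles were -0.45 and 0.42. At an adjusted p under 0.05, 0.0106% of members were called, which is 1 of 9404, against 0.00901% of all 22206 clusters. At an unadjusted p under 0.05, 584 members were higher (6.21%) and 594 lower (6.32%), together 12.5% of members. Over all clusters the shares were 5.73% higher and 5.91% lower, together 11.6%. The member counts include 64 of the 177 members above the floor in only 1 group mean. Those 177 were kept through the group in which they were higher. In 274 members (2.91%) the 5 values of one group all lay beyond the 5 of the other, 123 of them higher (1.31%) and 151 lower (1.61%) in the 10 °C group. Over all clusters this held for 2.45%, 1.05% higher and 1.4% lower. A difference of more than 1 log2 unit was seen in 34 members, 7 higher and 27 lower, of which 18 also had an unadjusted p under 0.05. These shares are the background against which the gene groups below are read.

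Probe background moved with the groups. The mean of the 23 background control rows was 3.68 to 3.72 in the 10 °C arrays and 3.63 to 3.68 in the 23 °C arrays without overlap (exact permutation test, two-sided, p = 0.00794, adjusted over 3 measures 0.0238). The mean of the 5222 negative control rows was lower in the 10 °C arrays, 4.53 ± 0.03 against 4.63 ± 0.09 (SD, n = 5 each, exact permutation test, p = 0.0476, adjusted 0.0714). When each array's background control mean entered the fit as a covariate, 277 members were higher and 227 lower at an unadjusted p under 0.05. Because this covariate did not overlap between the groups, the fit cannot fully tell its part from that of the group. This holds wherever the background covariate is used below. The part of background in the differences below was not tested further. A score of clock genes did not separate the groups, with ranges of -2.11 to 2.06 and -3.31 to 3.44 (exact permutation test, p = 0.817).

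**Figure D1:**
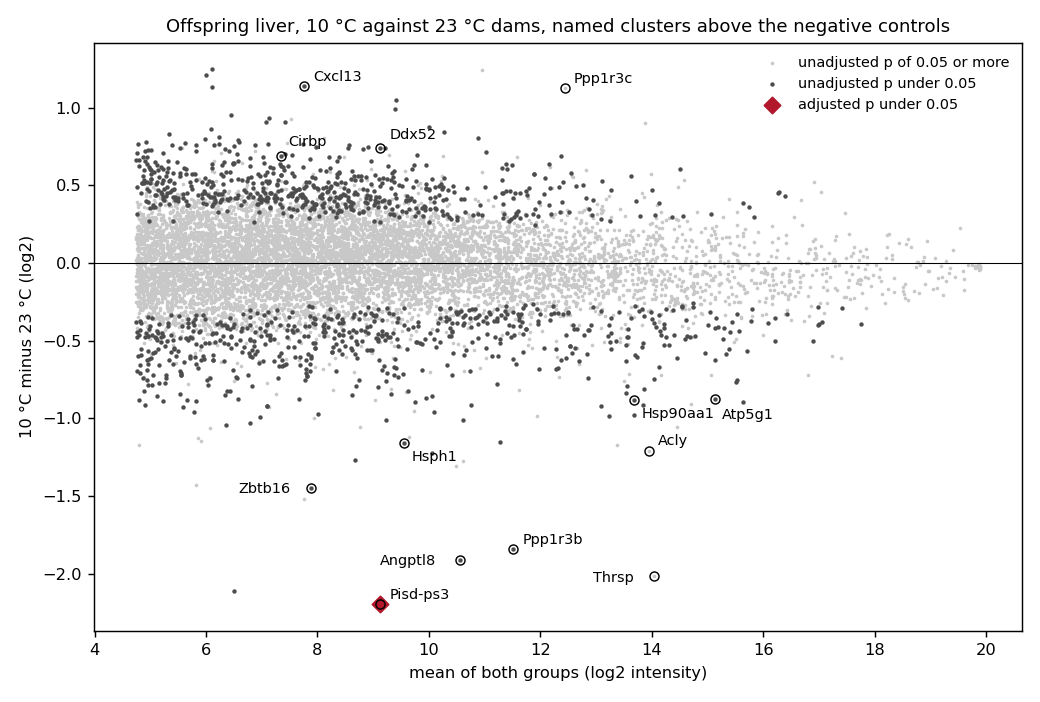
Difference between the 10 °C and 23 °C groups (vertical axis, log2) against the mean level of both groups (horizontal axis, log2 intensity) for the 9404 named clusters above the floor, with 13 genes circled. Most points lie close to 0, and Pisd-ps3, at -2.19, is the 1 point past the adjusted threshold.

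The called transcript was Pisd-ps3, a pseudogene copy of Pisd, which encodes the mitochondrial enzyme that makes phosphatidylethanolamine from phosphatidylserine. Pisd-ps3 fell by 2.19 ± 0.36 (SE, n = 5 a group), a 4.58-fold lower signal (limma, adjusted p = 0.0484). It read 8.28, 7.32, 8.68, 8.22 and 7.65 in the 10 °C animals and 10.87, 11.17, 10.34, 10.10 and 8.64 in the 23 °C animals. The 23 °C animal 23 was the only control inside the 10 °C range, and the other 4 controls lay above every 10 °C animal. Without that animal the difference was -2.59 and the adjusted p 0.000229, while leaving out any other of the 20 arrays gave an adjusted p of 0.0529 to 0.213. The parent gene Pisd differed by 0.09 ± 0.17, reading 7.69 to 8.11 in the 10 °C and 7.55 to 8.21 in the 23 °C animals. Probes for a pseudogene can also bind its parent or other copies, so the level of Pisd-ps3 is uncertain. In the 18 °C group the transcript read 9.50 to 10.05 and in the 30 °C group 9.60 to 10.85, which is -0.44 and 0.02 against the same 23 °C arrays.

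No other named member had an adjusted p below 0.129, a value shared by 20 members, and 132 members lay below 0.2. The genes with the smallest p-values are given next as values.

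The 15 higher members with the smallest p-values belonged to several cell functions. In 14 of them the groups did not overlap, against 1.31% of all members, but a choice by p favours such genes. Ddx52, an RNA helicase of ribosomal RNA processing, read 9.47, 9.49, 9.63, 9.29 and 9.60 against 8.32, 8.57, 8.99, 8.86 and 9.05, a difference of 0.74 ± 0.15 (adjusted p = 0.129). Eif6, which keeps large ribosomal subunits from joining small ones early, read 9.90, 10.10, 9.89, 10.34 and 10.03 against 9.16, 9.62, 9.55, 9.42 and 9.36, a difference of 0.63 ± 0.14. Dnaja2, a J-domain co-chaperone of the Hsp70 proteins, read 7.80, 7.81, 7.98, 8.18 and 7.71 against 7.33, 7.14, 7.08, 7.08 and 7.39, a difference of 0.70 ± 0.14. In all 3 genes every 10 °C animal stood above every control.

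Regulators of transcription formed part of the same set. Zfp39 and Zscan2, both zinc finger proteins, were higher by 0.75 ± 0.16 and 0.61 ± 0.14. Creb3, a transcription factor held in the endoplasmic reticulum membrane, was higher by 0.55 ± 0.13 with 10 °C values of 12.25 to 12.43 and control values of 11.56 to 11.92. Genes of the centrosome and microtubules included Cep68, higher by 0.90 ± 0.19, and Mzt1 of the gamma-tubulin ring complex, higher by 0.54 ± 0.14. Further members were Siae, an esterase that removes acetyl groups from sialic acids (0.63 ± 0.14), Arf2, a GTPase of vesicle traffic (0.68 ± 0.16), Taok2, a kinase upstream of stress-activated MAP kinases (0.59 ± 0.15), Shld1 of the shieldin complex in DNA break repair (0.71 ± 0.18), Rhbdd3, a rhomboid family protein (0.64 ± 0.16, the 1 member with overlapping groups), and Fam220a (0.65 ± 0.14).

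Cxcl13, a chemokine that attracts B cells, had the largest difference of the 15 at 1.14 ± 0.28, a 2.2-fold higher signal. It read 8.58, 8.08, 8.50, 8.77 and 7.74 in the 10 °C and 6.68, 7.54, 7.35, 7.33 and 7.07 in the 23 °C animals. All of the 5 animals of the 10 °C group lay above the controls, with animal 8 closest to them. Against the same controls Cxcl13 was 0.99 higher in the 18 °C and 0.09 higher in the 30 °C group.

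The 15 lower members with the smallest p-values included, beside Pisd-ps3, genes of DNA repair, small nuclear RNA processing and nuclear transport. Fance, of the Fanconi anaemia core complex that acts in DNA crosslink repair, read 6.25, 5.81, 6.10, 5.75 and 6.19 against 6.99, 7.17, 6.72, 6.77 and 6.59. It was lower by 0.83 ± 0.15 (difference -0.83, adjusted p = 0.129), and the groups did not overlap. Ints1, a core subunit of the Integrator complex, which cuts the 3′ ends of small nuclear RNAs, read 8.27, 8.12, 7.94, 7.91 and 7.70 against 8.85, 8.41, 8.74, 8.71 and 8.73, a difference of -0.70 ± 0.15. Ran, the GTPase that drives transport through the nuclear pore, read 10.13, 9.92, 10.18, 10.39 and 9.66 against 11.10, 10.77, 10.87, 10.73 and 10.41, a difference of -0.72 ± 0.16.

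Membrane and glycosylation genes were the other recognisable members. Krtcap2, a subunit of the oligosaccharyltransferase complex, differed by -0.74 ± 0.17, and B4galnt3, a glycosyltransferase, by -0.89 ± 0.21. Marveld3, a tight junction protein, differed by -0.96 ± 0.22, Zdhhc24 of the palmitoyltransferase family by -0.78 ± 0.18, and Ninl, a ninein-like centrosomal protein, by -0.92 ± 0.21. Atp5g1, which encodes the c subunit of the ATP synthase rotor, differed by -0.88 ± 0.20 and is described with the respiratory chain. Krtap5-1, a keratin-associated protein, Gm14393 and B430306N03Rik differed by -0.82, -1.01 and -0.74. Duxbl2 and Duxbl3, near-identical double homeobox genes, carried the same value on every array, -0.92 ± 0.22, so their signals cannot be told apart. Of these 15, all but Pisd-ps3 and Ninl had groups that did not overlap, against 1.61% of all members. The choice by p favours such genes here too. Odc1, the first enzyme of polyamine synthesis and the next gene in order of p, chosen after its values were seen, differed by -0.80 ± 0.19 without overlap.

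**Figure D2:**
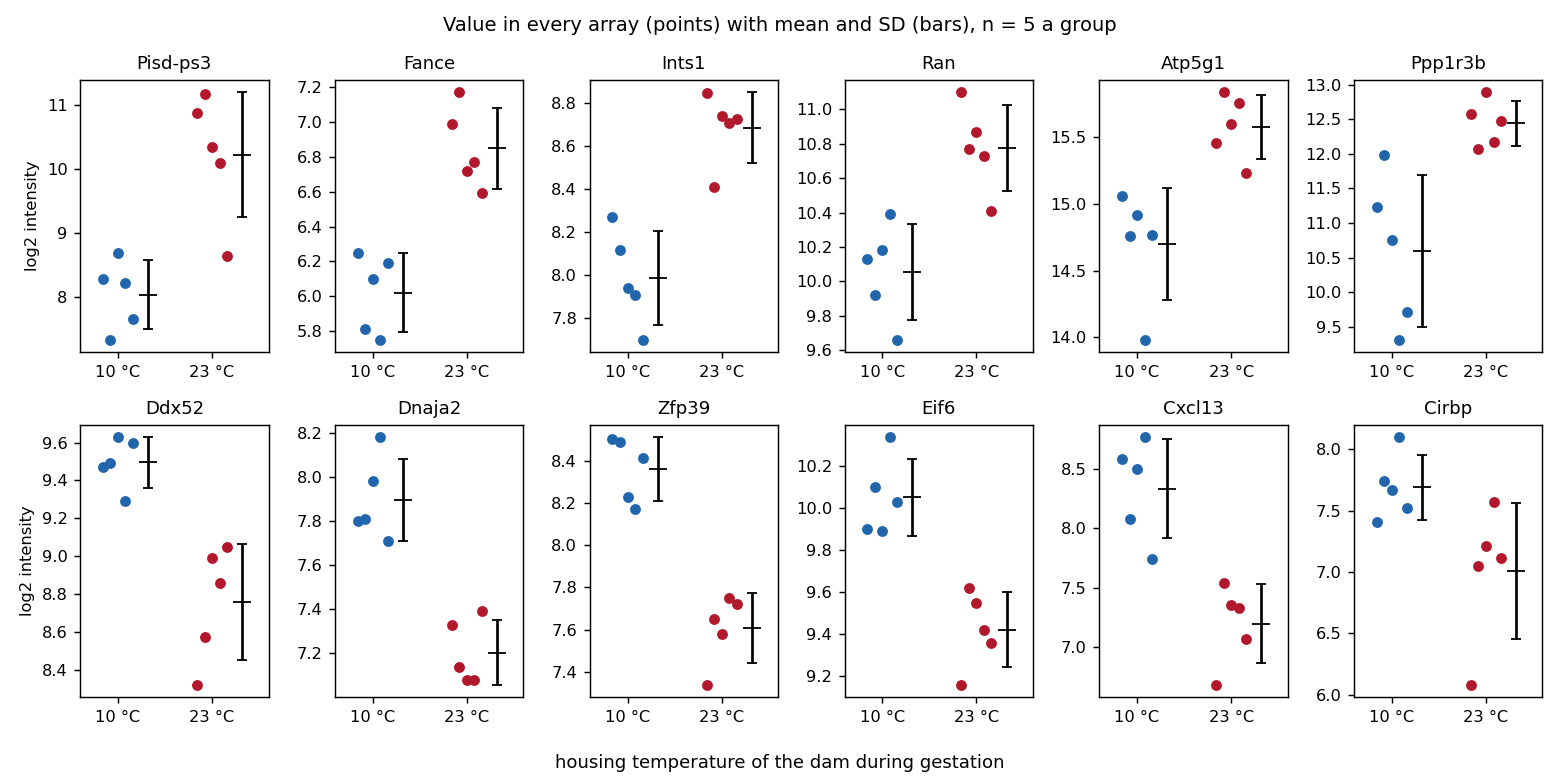
Log2 intensity in each array (points) for 12 genes, with the 10 °C animals in blue and the 23 °C animals in red and the mean and SD beside them (n = 5 a group). The vertical axes differ and do not start at 0. In all panels but those of Pisd-ps3 and Cirbp the groups do not overlap.

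The heat shock proteins were the gene group with the largest share of nominal differences, and 2 control animals weighed heavily on it. Of 22 members above the floor 20 were lower in the 10 °C group, 10 at an unadjusted p under 0.05 (45.5%, against 6.32% of all members), and the median was -0.43 against 0.01 over all members. None passed the adjusted threshold. Promoters were taken from RefSeq on build GRCm38.p6, 150 bases before to 30 bases after the first base, 5′ to 3′ on the gene's strand. They were searched on both strands for the heat shock element, the binding motif of heat shock factors, spelled as GAA, TTC and GAA with 2 bases of any kind (N) between each, and capitals mark it. Hsph1 (chr5:149636286-149636465, minus strand), Chordc1 (chr9:18292117-18292296, plus strand) and Hspe1 (chr1:55087998-55088177, plus strand) hold it and are shown with Dnaja2 (chr8:85555332-85555511, minus strand), the 1 member nominally higher, which has no match in the window. The 4 were chosen with their differences known and do not represent the list.
Hsph1: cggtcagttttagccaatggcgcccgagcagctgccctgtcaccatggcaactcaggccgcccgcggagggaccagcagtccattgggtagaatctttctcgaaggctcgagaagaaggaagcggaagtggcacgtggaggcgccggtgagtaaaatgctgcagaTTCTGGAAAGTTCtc
Chordc1: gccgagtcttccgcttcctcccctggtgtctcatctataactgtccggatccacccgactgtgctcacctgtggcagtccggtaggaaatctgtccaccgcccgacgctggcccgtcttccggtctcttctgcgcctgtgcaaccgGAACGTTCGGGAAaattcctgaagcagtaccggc
Hspe1: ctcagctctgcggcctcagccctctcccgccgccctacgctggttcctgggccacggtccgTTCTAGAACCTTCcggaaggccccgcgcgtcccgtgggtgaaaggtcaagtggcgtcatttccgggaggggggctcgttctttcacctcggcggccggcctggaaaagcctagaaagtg
Dnaja2: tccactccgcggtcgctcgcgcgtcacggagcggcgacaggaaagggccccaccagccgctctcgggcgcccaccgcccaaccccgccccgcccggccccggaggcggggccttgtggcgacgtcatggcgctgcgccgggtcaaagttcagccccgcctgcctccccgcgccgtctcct
Counted from the start, the motif lay at bases 15 to 27 in Hsph1, across the start in Chordc1 and at bases -89 to -77 in Hspe1. Of the 19 heat shock members with a window in the table, 5 held it in the table's longer window (Chordc1, Dnajb6, Hspd1, Hspe1 and Hsph1), as did 179 of all 27025 genes (0.662%). Holding it did not go with the sign of the difference in every member: Dnajb6 differed by 0.09 and Hspd1 by -0.08, and 14 of the 19 held no match while 20 of the 22 members were lower. A match describes the letters of the window and not a bound site.

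Among the large chaperones, Hsp90aa1, the stress-inducible cytosolic Hsp90, read 13.22, 13.24, 13.34, 13.46 and 12.99 against 14.87, 14.35, 13.77, 13.91 and 13.76. Its groups did not overlap, and it differed by -0.88 ± 0.23 (adjusted p = 0.154). Hsph1, a nucleotide exchange factor of Hsp70, read 9.12, 9.33, 8.98, 8.90 and 8.57 against 11.31, 11.03, 9.23, 9.44 and 9.68, a difference of -1.16 ± 0.45. The 23 °C animals 1 and 2 stood far above the other 8 animals in Hsph1, and animal 4 of the 10 °C group overlapped animal 15 of the controls. The inducible Hsp70 gene Hspa1b read 4.92, 5.69, 5.61, 4.87 and 5.38 against 9.03, 7.31, 5.84, 4.76 and 5.14, a difference of -1.12 ± 0.57 that was 0.05 without those 2 animals.

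Several co-chaperones were also lower. Dnajb1, a J-domain protein, differed by -0.75 ± 0.26, Stip1, which links Hsp70 to Hsp90, by -0.68 ± 0.23, Chordc1, an Hsp90 co-chaperone, by -0.69 ± 0.26, and the small heat shock protein Hspb1 by -0.71 ± 0.22. In the mitochondrion Hspe1, the co-chaperonin, differed by -0.33 ± 0.16 and Hspa9, the mitochondrial Hsp70, by -0.29 ± 0.15 without overlap. Averaged over the 22 members, the deviation from the control mean was 0.59 in animal 1 and 0.26 in animal 2 of the 23 °C group, while the remaining 3 controls ranged from -0.30 to -0.24 and the 10 °C animals from -0.52 to -0.31. All 5 of the 10 °C animals thus lay below all 5 controls on this average, by a narrow margin from 3 of them. Without 23 °C animal 1 alone 5 members were nominally lower, without animal 2 alone 4, and without both 2, with a median of -0.18. With the background covariate 4 were nominally lower with a median of -0.40. Against the same controls the median of the 22 was -0.04 in the 18 °C and -0.22 in the 30 °C group.

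**Figure D3:**
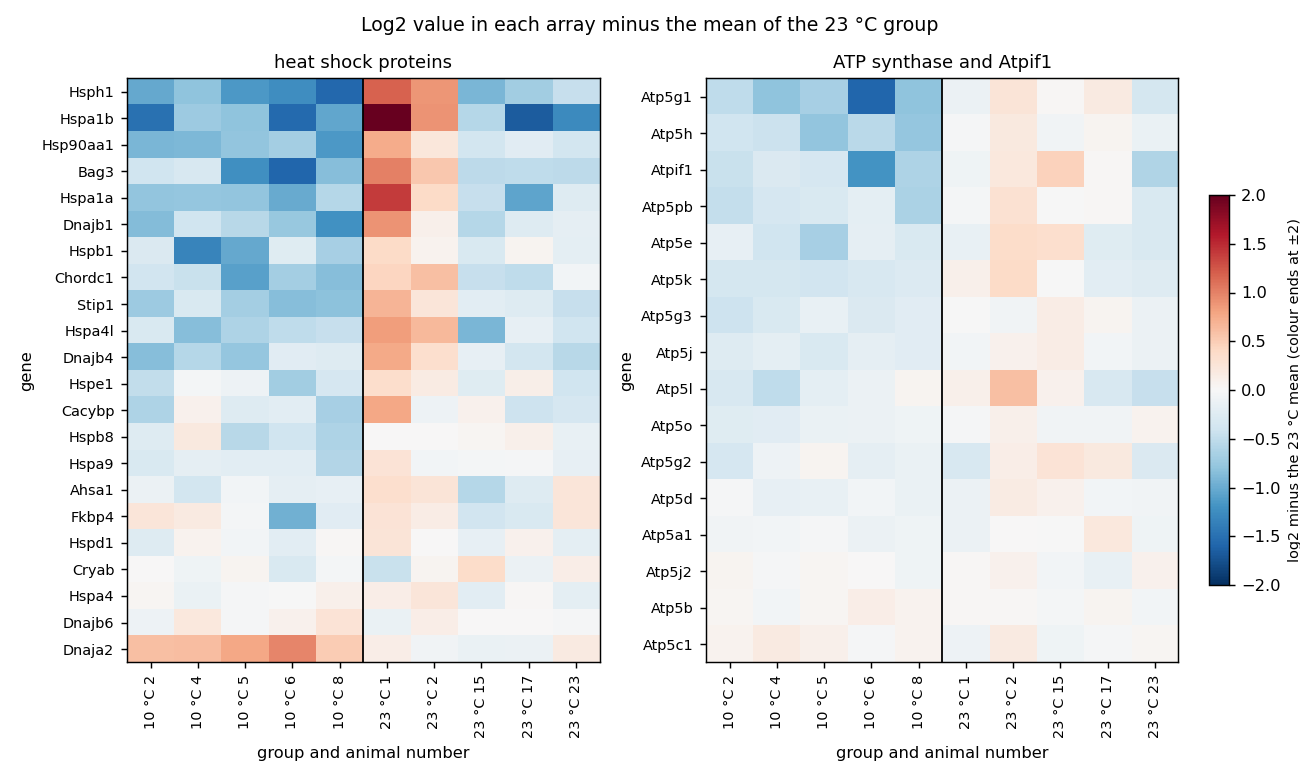
Log2 value of each array minus the mean of the 23 °C group for the 22 heat shock members (left) and the 16 ATP synthase genes, including the inhibitor Atpif1 (right). Columns are animals with the 10 °C group left of the line, rows are genes ordered by difference, and colours end at 2 units either way. Most heat shock genes are reddest in 23 °C animals 1 and 2, and Dnaja2 in the 10 °C animals, whereas the lower ATP synthase values are spread over the 10 °C animals.

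The cold-inducible RNA-binding proteins did not differ at the adjusted threshold. Cirbp read 7.41, 7.74, 7.67, 8.10 and 7.52 against 6.08, 7.05, 7.21, 7.57 and 7.11, a difference of 0.69 ± 0.24 (adjusted p = 0.276), with 23 °C animal 1 lowest and animal 17 inside the 10 °C range. Without 23 °C animal 1 it was 0.46. Rbm3 read 10.98 to 12.04 against 10.97 to 11.46, a difference of 0.26 ± 0.22 with full overlap. Against the same controls Cirbp differed by -0.22 and Rbm3 by 0.44 in the 18 °C group.

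Genes of oxidative phosphorylation were lower in the 10 °C group by small amounts. Of 78 subunits and cytochrome c above the floor, 61 were lower and 0 were nominally higher. At an unadjusted p under 0.05, 15 were lower (19.2%, against 6.32% of all members). Lower without overlap were 10, against 1.61% of all members. The median of the 78 was -0.14 and ranged from -0.15 to -0.09 with 1 array left out, the latter without 23 °C animal 2. None passed the adjusted threshold. With the background covariate 2 were nominally lower with a median of -0.08, and without 23 °C animals 1 and 2 together 8 were. After a new quantile normalization without control rows 50 of the 78 were lower, 12 nominally, with a median of -0.07.

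ATP synthase had the largest share. Of its 16 genes 14 were lower, with a median of -0.23. Of the 16, 5 were nominally lower (31.2%, against 6.32% of all members) and 6 lower without overlap (against 1.61% of all members). Without 10 °C animal 6 or without 23 °C animal 15 the nominal count was 3. The background covariate gave 11 lower, 1 nominally, with a median of -0.12, and leaving out controls 1 and 2 together gave 2 nominally lower. Atp5g1 read 15.06, 14.76, 14.92, 13.98 and 14.77 against 15.46, 15.84, 15.60, 15.76 and 15.23. Every 10 °C animal was below every control, animal 6 the furthest. Atp5h, of the peripheral stalk, read 15.23, 15.20, 14.83, 15.09 and 14.86 against 15.60, 15.82, 15.55, 15.68 and 15.49, a difference of -0.58 ± 0.16 without overlap. Atp5pb of the same stalk differed by -0.39 ± 0.14, and Atpif1, the inhibitor protein of the synthase, by -0.58 ± 0.26.

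The electron carriers and complexes differed less. Cycs, which encodes cytochrome c, read 15.43, 15.14, 15.08, 15.04 and 15.20 against 15.84, 15.64, 15.71, 15.44 and 15.47, a difference of -0.44 ± 0.13 without overlap. In complex I 28 of 36 members were lower, 4 of them nominally (11.1%, against 6.32% of all members). Ndufb3 differed by -0.46 ± 0.14 and Ndufc1 by -0.39 ± 0.14. In complexes II and III with cytochrome c 11 of 14 were lower, among them the core protein Uqcrc2 at -0.49 ± 0.18, but 6 of 14 with the background covariate (median 0.04 in place of -0.05) and 7 of 14 after quantile normalization without control rows. In cytochrome c oxidase 8 of 12 were lower, with Cox7a2 at -0.45 ± 0.16 and Cox7b at -0.28 ± 0.11, both without overlap. After that normalization 6 of the 12 were lower, with a median of -0.001. Against the same controls the median of all 78 was 0.02 in the 18 °C and -0.11 in the 30 °C group.

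Regulators of mitochondrial biogenesis were lower in 8 of 11 members, with 0 nominally lower and 1 higher, and this split rested on single animals. Leaving out 10 °C animal 5 gave 4 of 11 lower and a median of 0.05 in place of -0.06, leaving out animal 4 gave 2 nominally lower and a median of -0.17, and leaving out controls 1 and 2 together gave 5 of 11 lower. Nrf1, a transcription factor of respiratory genes, was higher by 0.40 ± 0.18 without overlap, and Ppargc1a, a coactivator of mitochondrial and gluconeogenic genes, differed by -0.27 ± 0.33 with control values of 8.18 to 9.92. Mitochondrial ribosomal proteins were lower in 34 of 51 members, 4 of them nominally (7.84%, against 6.32% of all members) and 1 nominally higher. That count of 4 was 1 without 10 °C animal 4 or 5 and 2 without 23 °C animal 2.

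Cytosolic ribosomal proteins were lower in 31 of 43 members, with a median of -0.11. At an unadjusted p under 0.05, 10 were lower (23.3%, against 6.32% of all members) and 0 higher. Lower without overlap were 3, against 1.61% of all members. Rpl6 read 14.62, 14.99, 15.04, 15.12 and 14.82 against 15.32, 15.42, 15.26, 15.45 and 15.24, a difference of -0.42 ± 0.12. Rpsa read 11.59, 11.76, 11.81, 12.01 and 11.82 against 12.29, 12.46, 12.49, 12.38 and 12.09, a difference of -0.54 ± 0.16. Both had separate groups. Rpl28 and Rpl27 differed by -0.67 ± 0.22 and -0.55 ± 0.18 with overlap. Leaving out animal 2 of either group gave a nominal count of 6, leaving out control 17 gave 5, and the background covariate gave 3, with 35 of 43 lower and a median of -0.11 as before. The median was -0.03 after quantile normalization without control rows. Ribosomal protein genes have many processed pseudogenes, so probes may read more than 1 copy. In the 18 °C group Rpl6 and Rpsa differed from the same controls by -0.49 and -0.52, and in the 30 °C group by -0.11 and 0.02.

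Groups of RNA processing genes differed in their nominal shares, and 0 members passed the adjusted threshold. Of 38 splicing factors 3 were nominally higher (7.89%, against 6.21% of all members) and 5 lower (13.2%, against 6.32%), the latter 3 without 10 °C animal 2. Tra2a, a splicing activator, read 9.76, 9.28, 9.70, 8.98 and 9.81 against 10.61, 10.29, 10.23, 10.76 and 9.99, a difference of -0.87 ± 0.25. Sf3a2 of the U2 particle differed by -0.68 ± 0.23, with 10 °C values of 7.31 to 7.57 all below the controls. Prpf31 of the tri-snRNP was higher by 0.52 ± 0.16, also without overlap, and the SR protein Srsf5 by 0.69 ± 0.25 with overlap. In the Integrator complex Ints1, Ints8, Ints2 and Ints3 were nominally lower, by -0.70, -0.43, -0.47 and -0.43. That is 28.6% of its 14 subunits, against 6.32% of all members, while 7 of 14 subunits were higher. The split was 3 of 14 higher when 10 °C animal 2, control 1 or control 2 was left out, with medians of -0.08, -0.08 and -0.05, and 2 of 14 with a median of -0.20 when both controls were. That count of 4 was 2 without 10 °C animals 2, 4 or 8 or without 23 °C animals 2 or 23. Of 24 mRNA decay factors 17 were higher, 2 nominally (8.33%) or 5 without 10 °C animal 2, with the exonuclease Xrn2 at 0.47 ± 0.14 and Smg5 of nonsense-mediated decay at 0.52 ± 0.20. Of 5 Fanconi pathway members above the floor Brca2 was higher by 0.56 ± 0.21 without overlap, opposite to Fance.

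Genes of glucose handling were of interest because the series concerns glucose tolerance of these offspring. Pck1, the first dedicated enzyme of gluconeogenesis, read 17.45, 17.14, 16.65, 17.81 and 17.32 against 17.54, 17.33, 15.80, 16.73 and 16.67, a difference of 0.46 ± 0.28. G6pc, which releases glucose from glucose 6-phosphate, read 16.91, 16.16, 15.16, 15.58 and 15.73 against 17.40, 15.75, 15.69, 15.63 and 16.32, a difference of -0.25 ± 0.45 that was 0.06 without 23 °C animal 1. The glucose transporter gene Slc2a2 differed by 0.07 ± 0.27 (95% interval -0.48 to 0.61). In all 3 genes the groups overlapped.

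Of 19 gluconeogenic members 14 were lower, 3 nominally (15.8%, against 6.32% of all members). These were Mdh2 and Mdh1, the mitochondrial and cytosolic malate dehydrogenases, at -0.43 ± 0.13 and -0.44 ± 0.15, and the transcription factor Creb1 at -0.40 ± 0.19. The median of -0.18 depended on single animals. Leaving out 10 °C animal 4 gave -0.28, animal 5 gave -0.01 and animal 6 gave -0.06, and leaving out control 2 gave -0.09. Mdh1 read 15.47, 15.34, 15.49, 15.05 and 15.37 against 15.97, 15.79, 15.82, 15.84 and 15.49, with the 10 °C animal 5 equal to the lowest control at 2 decimals.

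In glucose breakdown 12 of 17 members were lower, 3 nominally (17.6%, against 6.32% of all members). Nominally higher were 3 others (17.6%, against 6.21%). Aldoa, an aldolase, was higher by 0.45 ± 0.15, and Txnip, a glucose-responsive inhibitor of glucose uptake, by 0.72 ± 0.24. Gapdh of glycolysis differed by -0.38 ± 0.15 and Pdhb, a subunit of pyruvate dehydrogenase, by -0.40 ± 0.15. With the background covariate 9 of the 17 were lower, with a median of -0.08 in place of -0.20. The nominally lower count was 1 without 10 °C animals 5 or 6 or 23 °C animal 2. Pdk4, a kinase that shuts pyruvate dehydrogenase off and a PPARA target, was higher by 0.95 ± 0.40 with 6.03 to 7.62 against 5.13 to 6.36.

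Insulin signalling genes were higher in 19 of 24 members, 1 of them nominally (4.17%, against 6.21% of all members). Insr, the insulin receptor, read 14.21 to 14.40 in the 10 °C animals and at most 14.19 in the controls, a difference of 0.22 ± 0.12 (adjusted p = 0.486). Its groups were tight and did not overlap, with 10 °C animal 2 next to control 23. Irs1 and Irs2, the main adaptor proteins of the receptor, differed by 0.42 ± 0.32 and 0.22 ± 0.41 with overlap, and Irs2 by -0.11 without 23 °C animal 15. Ptpn1, a phosphatase that switches the receptor off, was higher by 0.43 ± 0.18. The median of 0.14 was 0.07 without 10 °C animal 6 and 0.09 without 23 °C animal 1.

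Glycogen genes contained a pair of large differences of opposite sign. Ppp1r3b, the main liver subunit that brings protein phosphatase 1 to glycogen, read 11.23, 11.98, 10.75, 9.31 and 9.71 against 12.58, 12.07, 12.89, 12.17 and 12.48. All 10 °C animals lay below all controls, with animals 6 and 8 lowest, and the difference was -1.84 ± 0.54, a 3.58-fold lower signal (adjusted p = 0.197). Ppp1r3c, another such subunit, read 13.60, 13.16, 12.93, 12.89 and 12.42 against 11.58, 11.98, 11.28, 10.61 and 13.92, a difference of 1.12 ± 0.56 in which control animal 23 stood above all 10 °C animals. Phkb, a subunit of phosphorylase kinase, differed by -0.36 ± 0.15, and over 11 members the median was 0.00. Against the same controls Ppp1r3b differed by -0.60 and Ppp1r3c by -1.20 in the 18 °C group, and by -1.22 and 0.46 in the 30 °C group.

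Fatty acid synthesis genes were lower in all 16 members, while 1 passed the unadjusted threshold. That count was 5 without 10 °C animal 4 and 3 without 10 °C animal 2 or control 23, and without 10 °C animal 6 the number lower was 13 of 16. Mlxipl, which encodes the glucose-sensing transcription factor ChREBP, read 11.34 to 12.20 against 12.49 to 12.79, a difference of -0.68 ± 0.19 without overlap (adjusted p = 0.169). Thrsp, a lipogenic nuclear protein, read 13.83, 15.84, 12.37, 8.77 and 14.40 against 15.79, 17.12, 15.08, 13.62 and 13.67, a difference of -2.01 ± 0.99 that was -0.95 without 10 °C animal 6. Acly, which makes cytosolic acetyl-CoA, and Fasn, the fatty acid synthase, differed by -1.21 ± 0.60 and -1.17 ± 0.71, and by -0.63 and -0.53 without that animal.

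Acaca, the carboxylase of the committed step, differed by -0.46 ± 0.35. Scd1, the main desaturase, differed by -0.17 ± 0.28 at 19.20 to 19.85, close to the highest value on the arrays. The median of the 16 was -0.44, but -0.23 once 10 °C animal 6 was left out. The background covariate gave -0.12, under which 10 members were lower. In the other groups it was 0.32 (18 °C) and -0.51 (30 °C) against the same controls.

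Animal 6 of the 10 °C group stood apart in lipid genes. Averaged over the 16 fatty acid synthesis genes it deviated from the control mean by -1.77, whereas the other 4 animals of its group deviated by -0.69 to 0.19. Over 19 cholesterol synthesis genes it deviated by -1.98, with the others at -0.27 to 0.53. Cholesterol synthesis genes were lower in 17 of 19 members with a median of -0.29, which was 0.10 with 7 of 19 lower without animal 6. Without 10 °C animal 4 the median was -0.46 and without 23 °C animal 23 it was -0.47. Fdps, an enzyme of the isoprenoid steps, differed by -0.81 ± 0.58 and Insig1, a sterol-sensing brake on SREBP, by -0.72 ± 0.43.

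PPARA and its targets, which burn fat, were higher in 19 of 22 members with a median of 0.23, or 0.07 without the 10 °C animal 6, whose mean deviation over them was 1.14 against -0.28 to 0.28 in the other 4. Cpt1a, which admits fatty acids to the mitochondrion, read 13.71, 14.48, 13.52, 14.72 and 13.90 against 13.29, 13.89, 13.61, 13.56 and 13.86, a difference of 0.42 ± 0.22. Vnn1, a pantetheinase, differed by 0.81 ± 0.47, Acot2, a mitochondrial thioesterase, by 0.53 ± 0.29 and Ppara itself by 0.34 ± 0.31. Fgf21, a fasting hormone of the liver, lay below the floor in 10 of 10 animals, with animal 6 highest at 4.64 and the others at 2.55 to 3.08. Mitochondrial and peroxisomal fatty acid oxidation genes were higher in 17 of 23 members with a median of 0.09, or 0.03 without animal 6, and Scp2, a peroxisomal thiolase and lipid carrier, was nominally lower at -0.39 ± 0.15.

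**Figure D4:**
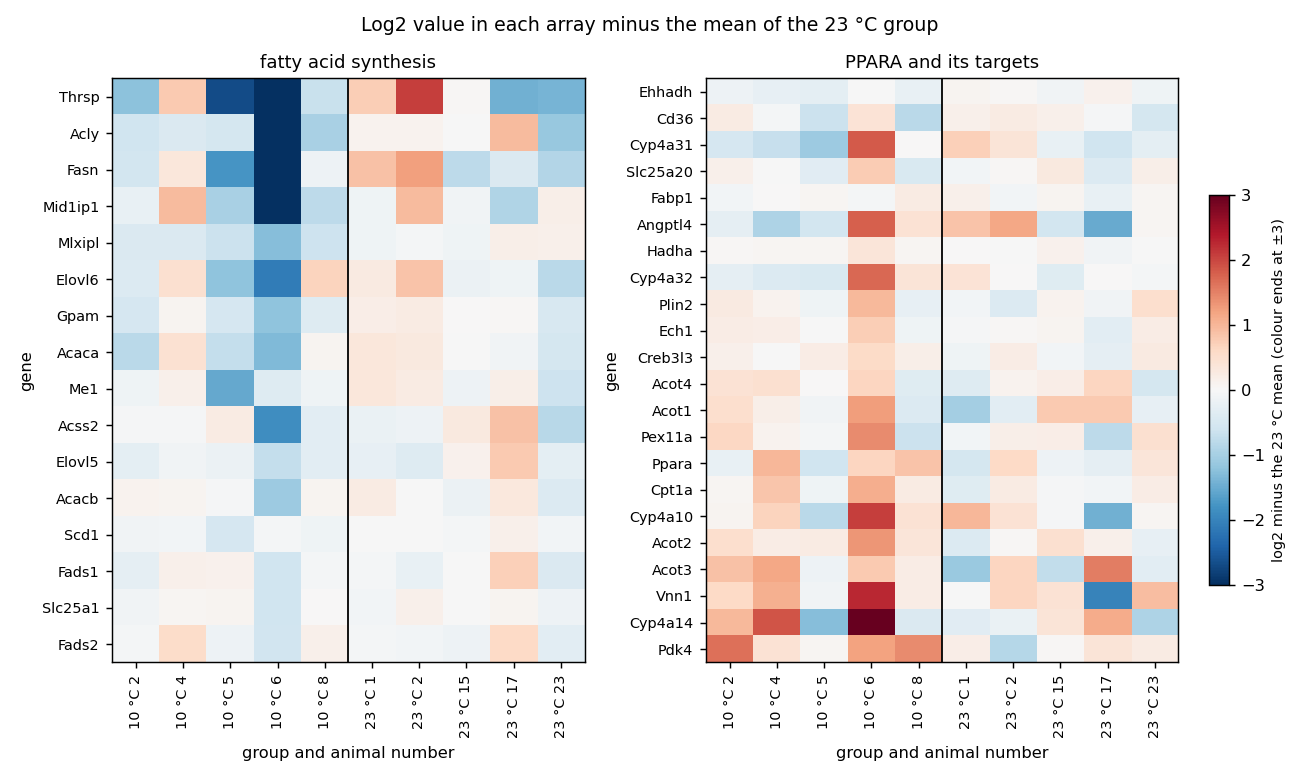
Log2 value of each array minus the mean of the 23 °C group for 16 fatty acid synthesis genes (left) and for PPARA with its targets, 22 genes (right). Columns are animals with the 10 °C group left of the line, rows are genes ordered by difference, and colours end at 3 units either way. Animal 6 of the 10 °C group is bluest at left and reddest at right.

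Bile acid and lipoprotein genes stayed near the background. Cyp7a1, which starts and limits the making of bile acids, read 14.47, 13.99, 12.71, 15.64 and 14.47 against 15.25, 15.75, 15.28, 14.88 and 14.67, a difference of -0.91 ± 0.57 with overlap, and -0.52 without 10 °C animal 5. In the 18 °C group it was 1.28 above the same controls. Akr1d1, a later enzyme of the pathway, differed by -0.63 ± 0.28 and Abcc2, a canalicular export pump, by 0.29 ± 0.14. Apoc3, an inhibitor of triglyceride clearance, differed by -0.40 ± 0.17 and Lrp1, a remnant receptor, by 0.31 ± 0.13. Over 22 bile acid and 21 lipoprotein genes the medians were -0.04 and 0.015.

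Hormone-responsive genes held some of the largest differences and the widest spread. Angptl8, an insulin-induced inhibitor of lipoprotein lipase, read 9.80, 12.82, 8.57, 8.26 and 8.54 against 9.80, 11.49, 12.31, 10.48 and 13.46, a difference of -1.91 ± 0.88 with 10 °C animals 2 and 4 reaching into the control range. In the 18 °C group it differed by -2.57 from the same controls. Zbtb16, a glucocorticoid-induced transcription factor, differed by -1.45 ± 0.59, and by -0.82 without 23 °C animal 2, which read 11.10. Tsc22d3, another glucocorticoid target, read 8.86 to 10.59 against 9.67 to 11.86, a difference of -0.96 ± 0.42.

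In the growth hormone axis Igf1 differed by -0.18 ± 0.12 and the receptor gene Ghr by -0.17 ± 0.12, while the receptor's kinase Jak2 was higher by 0.33 ± 0.16. Sex-biased liver genes were lower in 14 of 15 members, with the male-biased Cyp4a12b at -0.49 ± 0.22 and the female-biased Cyp3a41a at -0.63 ± 0.30 both lower. Without 10 °C animal 4, 9 of the 15 were lower. Of 9 thyroid hormone genes 0 were nominally different.

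Clock genes spread widely within both groups. Dbp, a clock output factor that peaks in the late day, read 10.52 to 15.41 in the 10 °C and 9.44 to 16.29 in the 23 °C animals, a difference of 0.56 ± 1.11 that was -0.08 without 10 °C animal 4 and -0.15 without 23 °C animal 17. Arntl, which encodes BMAL1, differed by -0.67 ± 0.88. Cry2, a repressor of the clock, was higher by 0.87 ± 0.33. Noct, a rhythmic regulator of lipid handling that was chosen after its values were seen, differed by -2.11 ± 0.82 with 4.42 to 7.19 against 5.74 to 10.52, and by -1.37 without 23 °C animal 17. Time of death is not in the labels.

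Interferon-stimulated and antigen presentation genes were higher in 32 of 43 members, with a median of 0.21. Nominally higher were 6 (14%, against 6.21% of all members) and nominally lower 0. Higher without overlap were 2, against 1.31% of all members. Irf7, a master regulator of interferon genes, read 8.49, 8.58, 9.09, 8.53 and 8.72 against 8.12, 8.12, 8.09, 8.21 and 7.59, a difference of 0.66 ± 0.26 without overlap. Igtp, an interferon-inducible GTPase, read 7.25 to 8.10 against 6.85 to 7.34, a difference of 0.63 ± 0.17 with slight overlap. Psmb10, an immunoproteasome subunit, was higher by 0.62 ± 0.19 without overlap, at 7.47 to 7.89 against 6.88 to 7.44.

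Psmb8 of the same particle was higher by 0.42 ± 0.19 and the antiviral gene Ifit1 by 0.38 ± 0.16. The nominally higher count was 3 without 10 °C animal 5, 10 without 10 °C animal 6 and 10 without 23 °C animal 17. With 1 array left out, the nominally lower count ranged from 0 to 3. Against the same controls the median of the 43 was 0.13 in the 18 °C and -0.07 in the 30 °C group, with Irf7 at 0.52 and -0.19.

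Plasma proteins of defence were mixed. Among 35 complement and coagulation genes 4 were nominally lower (11.4%, against 6.32% of all members) and 0 higher. Masp2, a protease of the lectin pathway, differed by -0.39 ± 0.13 and complement factor B (Cfb) by -0.48 ± 0.19. The count of 4 was 1 without 10 °C animal 4 and 2 without 23 °C animal 1. Orm2, an acute phase protein, differed by -0.76 ± 0.24 with 8.23 to 9.19 against 9.01 to 10.05, and Hamp, which encodes the iron hormone hepcidin, by -0.61 ± 0.45. Stat3, which carries interleukin 6 signals, was higher by 0.49 ± 0.21. Serpins and alpha-macroglobulins were lower in 16 of 19 members with 1 nominally lower, Serpinf1, at -0.54 ± 0.15. Il22ra1, a receptor chain for interleukin 22, and Defb15, a defensin, were higher by 1.21 ± 0.39 and 1.25 ± 0.34 and were chosen after their values were seen.

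Of 29 matrix genes measured, 15 lay above the floor, and 11 of these 15 members were higher, with a median of 0.19. Nominally higher were 4 (26.7%, against 6.21% of all members) and nominally lower 1 (6.67%, against 6.32%). That median was 0.13 without 10 °C animal 8, 0.29 without 10 °C animal 6 and 0.30 without 23 °C animal 15. Against the same controls the median of the 15 was 0.30 in the 18 °C and 0.23 in the 30 °C group. Mmp14, a membrane-bound matrix protease, was higher by 0.77 ± 0.24 with 7.10 to 7.90 against 6.08 to 7.32. Col4a2 of basement membrane collagen and the laminin chain Lama4 were higher by 0.40 ± 0.16 and 0.41 ± 0.17, and elastin (Eln) was lower by 0.61 ± 0.29 (difference -0.61). Leaving out 10 °C animal 2 gave 2 in place of 4. The background covariate also gave 2, with 13 of 15 higher and a median of 0.20.

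Detoxification and amino acid genes had nominal shares near the 6.32% of all members, with 7.41% lower among 27 P450 genes, 6.45% among 31 conjugating enzymes and 7.69% among 26 urea cycle and amino acid genes. Cyp2c68 read 13.61, 13.65, 13.74, 13.80 and 13.51 against 14.28, 13.99, 14.74, 14.99 and 14.05, a difference of -0.75 ± 0.19 without overlap, while Cyp3a25 was higher by 0.45 ± 0.15. Both belong to P450 families with similar copies. Of the P450 genes 15 were lower. Of the conjugating enzymes 22 were lower, or 17 with the background covariate, with the peroxisomal and mitochondrial glutathione transferase Gstk1 at -0.47 ± 0.16 without overlap. Gclm, the regulatory subunit of glutathione synthesis, was higher by 0.39 ± 0.16 without overlap, with animal 6 of the 10 °C group highest at 16.53.

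Against the same controls the median of the 26 urea cycle and amino acid genes was -0.094 in the 18 °C and -0.095 in the 30 °C group. In the 10 °C group 22 of the 26 were lower with a median of -0.10. Only 14 were lower, with a median of -0.02, after quantile normalization without control rows, 15 under the background covariate and 16 when 10 °C animal 6 was left out. Asl, a urea cycle enzyme, differed by -0.62 ± 0.22, Hgd of tyrosine breakdown by -0.33 ± 0.14 and Cps1, the first urea cycle enzyme, by -0.23 ± 0.11 without overlap (17.22 to 17.64 against 17.66 to 17.90). Cth, which makes cysteine, differed by -0.76 ± 0.29. Gabarap of the autophagy machinery read 14.23 to 14.66 against 14.77 to 15.18, a difference of -0.48 ± 0.15 without overlap.

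Proteasome, chromatin, imprinted and cell cycle genes showed little. Of 30 proteasome subunits 0 were nominally higher and 1 lower. Of 37 chromatin enzymes 2 were nominally higher and 1 lower, with the deacetylase Hdac4 at 0.47 ± 0.16 and the methyl-DNA binding protein Mbd1 at -0.82 ± 0.35. Of 9 imprinted and 11 cell cycle members 0 were nominally different. Medians of secreted liver hormones (17 members), methionine and one-carbon genes (18), NRF2 targets and metallothioneins (21), acute phase proteins (22), autophagy genes (22) and glucocorticoid response genes (14) were -0.03, -0.16, -0.01, 0.05, 0.00 and -0.16. In the unfolded protein response 14 of 19 members were lower, with Trib3, a pseudokinase of the stress response, higher by 0.72 ± 0.20 and Pdia6, a disulfide isomerase, lower by 0.48 ± 0.17 (difference -0.48), both without overlap. With controls 1 and 2 both left out, 9 of the 19 were lower.

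**Figure D5:**
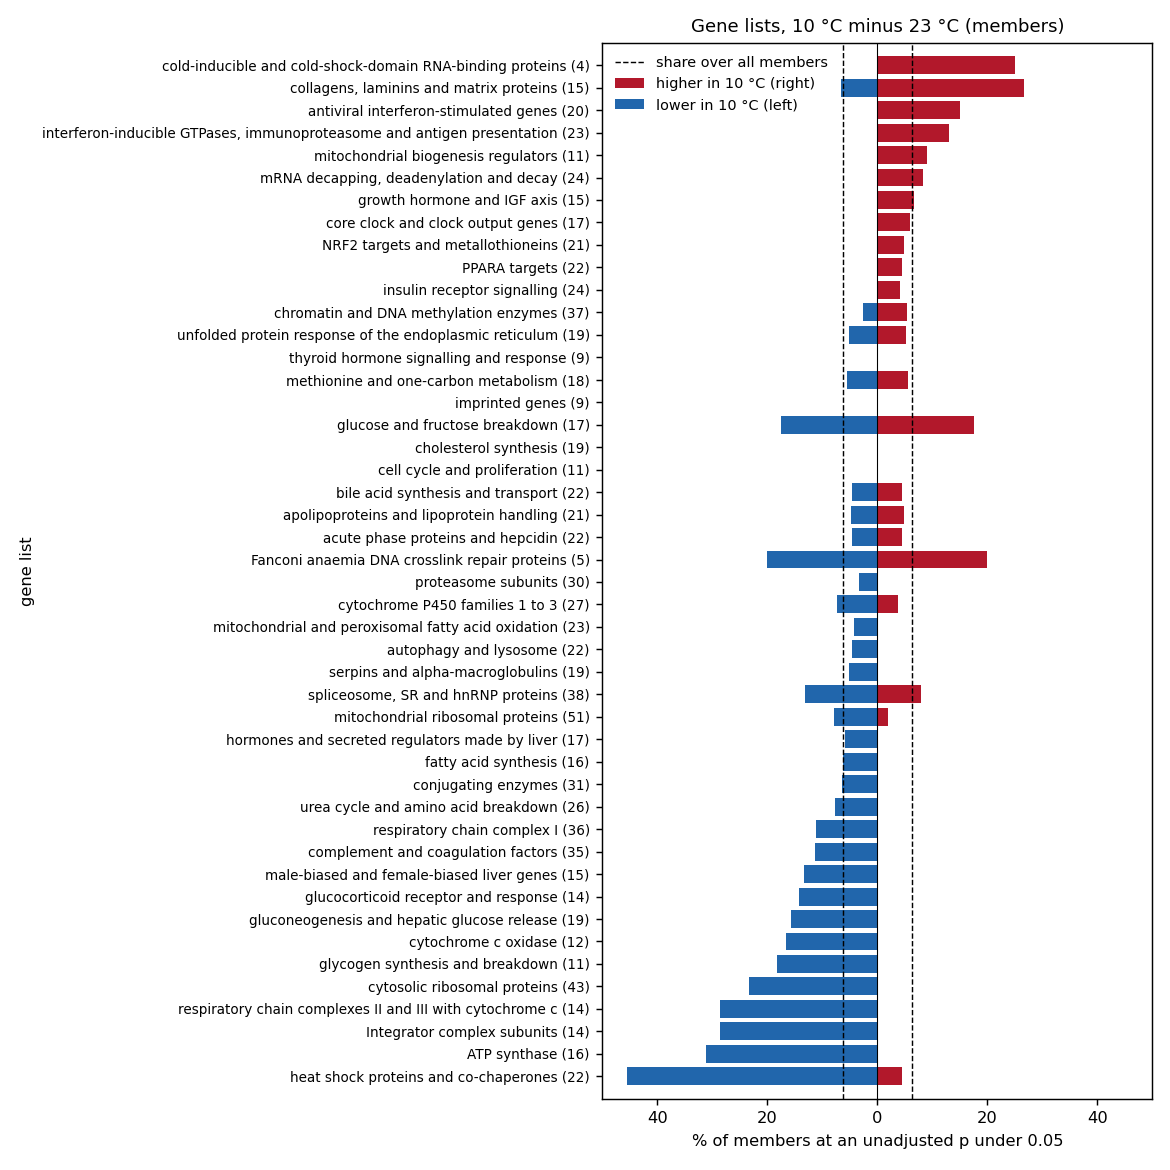
Share of members of 46 gene lists at an unadjusted p under 0.05 (horizontal axis, %), lower in the 10 °C group to the left and higher to the right, with the number of members above the floor in brackets. The dashed lines mark the shares over all members, 6.32% lower and 6.21% higher. Heat shock proteins have the longest bar to the left, and the bars of lists with few members rest on 1 or a few genes.

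Markers of liver cell types were checked beside these groups. All 7 hepatocyte markers lay above the floor, with a summed log2 signal of 22.04 to 22.14 in the 10 °C and 22.10 to 22.19 in the 23 °C arrays. All 7 Kupffer cell and macrophage markers lay above it, 6 of them higher, with a summed signal of 11.02 to 11.71 against 10.26 to 11.39. Among these Adgre1, which encodes a macrophage surface receptor, was higher by 0.74 ± 0.27 with overlap. Against the same controls Adgre1 was 0.88 higher in the 18 °C and 0.36 higher in the 30 °C group. Of 7 endothelial markers 5 were higher and 0 passed the unadjusted threshold. Of 5 stellate cell markers above the floor 3 were higher, with Reln at 0.47 ± 0.17, while Des and Col1a1 lay below the floor.

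The 2 erythroid markers measured above the floor did not move alike. Alas2, which makes heme in red cell precursors, read 11.32, 11.17, 11.41, 10.93 and 11.16 against 11.79, 11.58, 11.99, 12.07 and 11.65, a difference of -0.62 ± 0.16 without overlap. Slc4a1, the anion exchanger of red cells, read 5.38 to 5.99 against 5.17 to 6.22, a difference of -0.10 ± 0.21 with overlap. Their summed signal, 10.96 to 11.44 against 11.62 to 12.08, is nearly all Alas2. The bile duct keratin Krt7 differed by -0.48 ± 0.17 without overlap, at 4.42 to 4.56 against 4.80 to 5.36. Its 10 °C values all lay below the floor of 4.75, so it was kept through its control values only. Sox9, the other bile duct marker above the floor, differed by -0.17 ± 0.30 with overlap, while Krt19, Epcam and Cftr lay below the floor. For B cells, natural killer cells, neutrophils, adipocytes and pancreatic acinar cells 0 markers lay above the floor, for T cells 1 of 6 (Cd4) and for skeletal muscle 1 of 5 (Ckm). The part of macrophage and blood cell content in the interferon, chemokine and mitochondrial differences was not tested.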

How the data were processed

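Total liver RNA of 20 mice was hybridised to Affymetrix arrays, 1 array a mouse. The deposited log2 values were made by the authors with RMA in the Transcriptome Analysis Console, per the submitters' processing notes; versions, array build and any filter are not given in the sources used here. Gene symbols came from the platform annotation. Of 28846 table entries 6640 were controls, left out of the tests. The arrays correlated at 0.987 to 0.993, and 0 pairs were identical. The number of arrays limits the precision, with a median SE of 0.18.

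Group means were fitted to all 22206 clusters over 20 arrays with limma 3.58.1 (lmFit, eBayes) in R 4.3.3, with Benjamini-Hochberg adjustment over all clusters and a threshold of 0.05. Nominal means an unadjusted p under 0.05. The fit was also run on simulated data with known changes and independent noise for each cluster and array. That simulation held no background or litter effect, so it cannot speak to either. Array measures were compared with exact two-sided permutation tests. Named were the called member, the 15 higher and 15 lower members with the smallest p, and, in each of 46 gene lists, up to 4 members by p and those needed for its roles, plus 22 genes of heat shock, cold, glucose, lipid and growth hormone biology whatever their values; where a gene had several clusters, the brightest stood for it. The members and lists were chosen with earlier results of these data known. Alternatives were other fits, scalings, floors and covariates, and each array left out in turn.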

Additional observations from a re-analysis of the deposited data

Results flagged for a closer look

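For 151 named genes the highest and lowest value in each group of 5 was set against the other 4, and in 23 of 302 tests 1 animal stood apart by Dixon's criterion, where chance gives about 1 in 20. Animal 6 of the 10 °C group was the lowest of its group in Fam220a (6.55), Atp5g1 (13.98), Mlxipl (11.34), Acly (11.05) and Cps1 (17.22). It was the highest in Acot2 (9.69), Fgf21 (4.64), Lrp1 (14.54) and Gclm (16.53).

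Other 10 °C animals stood apart in single genes. Animal 2 was lowest in Duxbl2 and Duxbl3 (6.24, the same signal), animal 4 highest in Mbd1 (9.82), animal 5 lowest in Scd1 (19.20) and Psmb10 (7.47), and animal 8 lowest in Creb1 (5.27).

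Among the 23 °C animals, animal 1 was highest in Pisd (8.21). Animal 2 was lowest in Pdk4 (5.13) and highest in Zbtb16 (11.10), and animal 15 was lowest in Hdac4 (4.84). Animal 17 was lowest in Ndufb3 (8.17) and highest in Cps1 (17.90), and animal 23 was lowest in Insig1 (14.31) and Irf7 (7.59).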

How the results depend on the processing

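The 1 call became 0 in the fit of the 2 groups alone, with trend and robust variances, with array weights, after quantile normalization without control rows, with bright clusters only, with the background or the clock covariate, and without 23 °C animals 1 and 2, an alternative chosen after seeing the data. It was kept after median scaling. Leaving out 1 array gave 0 to 6 calls (6 without 23 °C animal 23), 437 to 621 nominally higher and 477 to 656 lower members, and 164 to 232 higher and 191 to 314 lower members without overlap. The background covariate left 277 higher and 227 lower nominal members. With the 95th percentile of the negative controls as floor (4967 members) these were 285 and 351, and without overlap 64 and 96.

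Nominally lower heat shock, respiratory and cytosolic ribosomal members numbered 4, 2 and 3 with the background covariate. Without 23 °C animals 1 and 2 heat shock and respiratory members numbered 2 and 8. With 1 array left out the counts were 4 to 12, 11 to 18 and 5 to 12, and 3 to 10 for nominally higher interferon members. The list counts were added after seeing the data.

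Of 4378 pairs of gene and setting, 4329 kept direction and side of the threshold, 27 lost the call of Pisd-ps3, 3 gained one (Ddx52, Fance and Gm14393 without 23 °C animal 23) and 19 in 11 genes turned direction. The background covariate gave Scd1 0.29, Ppara -0.13, G6pc 0.48, Slc2a2 -0.024, Dbp -0.87, Arntl 0.77, Ppargc1a 0.080 and Eln 0.014, and the clock covariate gave Slc2a2 -0.0024. Without 23 °C animals 1 and 2, Hspa1b was 0.047 and G6pc 0.029. With 1 array left out Fgf21 ranged from -0.094 to 0.43, G6pc from -0.50 to 0.062, Slc2a2 from -0.22 to 0.27, Irs2 from -0.11 to 0.42 and Dbp from -0.15 to 1.56. The cause was not tested. No paired analysis was possible because the labels name no litter, dam or other pairing between the 10 °C and 23 °C animals.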

Other observations

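Transcript clusters without a single gene symbol were measured too. Of 1004 such clusters above the floor, 1 was called at an adjusted p under 0.05 (limma), and 50 were nominally higher and 129 nominally lower in the 10 °C group, together 17.8%. The share over all clusters was 11.6%, and the difference between these shares was not tested.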
